A study of Homo sapiens with 18 samples.

Results

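Dual specificity phosphatases (DUSPs) are described here in cells of the human multiple myeloma lines MM1R and MM1S during early ferroptosis, an iron-dependent cell death with lipid peroxidation. The 10 genes DUSP1, DUSP2, DUSP4, DUSP5, DUSP6, DUSP7, DUSP8, DUSP10, DUSP16 and DUSP22 were taken by their symbols out of 43735 genes in the count table. All 10 have a row in the table, 9 passed the filter on low counts, and DUSP8 did not. MM1S cells are sensitive to glucocorticoids (GCs), and MM1R cells are a GC-resistant line of the same origin with little GC receptor. In each line, cells were left untreated, given 5 µM of the GPX4 inhibitor RSL3 for 3 h, or given 2 µM of the lipid peroxidation inhibitor ferrostatin-1 (Fer-1) for 2 h before RSL3. GPX4 reduces lipid peroxides, and its inhibition triggers ferroptosis. Each of the 6 groups has 3 libraries, and no group with Fer-1 alone was analysed here. Replicates 1, 2 and 3 are cells of passages 4, 6 and 7 in MM1R and of passages 16, 22 and 23 in MM1S, so that each passage has a library of every treatment.

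MAP kinases (ERK, JNK and p38) become active when a threonine and a tyrosine of their activation loop are both phosphorylated. DUSPs remove both phosphates, and several of their genes are switched on by the very kinases that they silence, which makes them feedback inhibitors. The nuclear DUSP1, DUSP2, DUSP4 and DUSP5 are known as inducible early genes, DUSP6 and DUSP7 act on ERK in the cytoplasm, and DUSP8, DUSP10 and DUSP16 prefer JNK and p38. DUSP22 is a small atypical member that lacks the kinase-binding domain. ERK signaling is often active in multiple myeloma through RAS mutations. The annotation of hg19 places long noncoding RNAs on the opposite strand over the whole of DUSP1 and over parts of DUSP6, DUSP8, DUSP16 and DUSP22. Whether reads were counted by strand is not given in the sources used here, so reads of these genes and their partners cannot be told apart.

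Total counts were 17635438 to 19368343 per library, with a median of 18564719, so that depth was nearly the same in all groups. All 8 plasma cell and myeloma markers looked at (among them SDC1, IRF4 and XBP1) were above 1 CPM (read counts scaled to library size, here with TMM factors) in every library, and the mature B cell markers MS4A1, PAX5 and CD22 were below it in every library. Of the T cell, myeloid, stromal, epithelial and erythroid markers, CD3E (3.26 to 11.5 CPM), PECAM1 (9.79 to 24.9 CPM) and HBB (3.40 to 12.7 CPM) were above 1 CPM in all libraries. Replicate 2 of the group labelled MM1R Fer-1 + RSL3 stood apart. Over the 5 genes used to mark MM1S, this library lay a median of 51.6% of the way from the other MM1R libraries to MM1S. It was kept out of the reference levels, a choice made after the data had been seen. It had 50.2 CPM of the GC receptor gene NR3C1, against 13.8 to 22.3 CPM in the other MM1R libraries and 89.9 to 391.8 CPM in MM1S. Response strength also differed between passages. The number of genes over 4-fold away from the untreated library of the same passage was 451 in MM1S passage 16, 208 and 183 in MM1R passages 7 and 4, 65 in MM1R passage 6, and 49 and 47 in MM1S passages 22 and 23. In bulk RNA, fewer cells that express a gene and less RNA per cell cannot be told apart.

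In untreated cells, DUSP5 was the most abundant member per length of annotated exon, with 209.3 ± 20.1 CPM per kb in MM1R and 120.4 ± 6.20 in MM1S (SD, n = 3 here and below). DUSP4 (51.3 ± 3.77 in MM1R, 27.9 ± 4.61 in MM1S) and DUSP22 (33.9 ± 1.80 and 36.5 ± 4.37) came next, and their order in MM1S was within the spread of the libraries. DUSP6 followed with 21.3 ± 4.98 and 13.9 ± 3.48 CPM per kb. The levels of DUSP7 (13.4 ± 0.735 and 8.73 ± 1.28) and DUSP1 (9.11 ± 4.10 and 9.26 ± 3.05) overlapped in both lines. DUSP2 had 8.42 ± 0.436 and 3.99 ± 0.892 CPM per kb and DUSP10 1.84 ± 1.13 and 2.60 ± 0.735. DUSP16 was close to the limit of the depth, with 2 to 21 counts per library over the whole data set. DUSP8 had 0 counts in 10 libraries and at most 2 counts in the others. Its level was thus under the limit that 3 counts set (0.155 to 0.170 CPM per library, for counting error only), so no fold is given for it.

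A single member, DUSP2, was a differentially expressed gene (DEG) between the untreated lines. A DEG has an FDR below 0.05 and moves by more than 1 on the log2 scale in either direction. All MM1R cells were of lower passage number than all MM1S cells, so line and passage number cannot be told apart here. DUSP2, an inducible phosphatase first known from activated lymphocytes, lies on the minus strand at chr2:96808908-96811179 (hg19, as all gene positions below). Its levels in untreated MM1R cells were 15.3, 16.8 and 16.7 CPM, all above the 9.53, 7.42 and 6.12 CPM of untreated MM1S cells (log2 fold change 1.08, SE 0.296, FDR = 0.0283). DEGs made up 4.64% of all 14281 tested genes in this comparison. The FDR rose above 0.05 or the fold fell under the threshold when MM1R untreated replicate 2 or 3 or MM1S untreated replicate 2 or 3 was left out. In 4 members, DUSP2, DUSP4, DUSP5 and DUSP7, all MM1R libraries were above all MM1S libraries, as in 15.6% of tested genes. DUSP4 (log2 fold change 0.88, FDR = 0.309), DUSP5 (0.80, FDR = 0.302) and DUSP7 (0.62, FDR = 0.221) did not pass the test. Neither did DUSP6 (0.61, FDR = 0.222), DUSP1 (-0.02, FDR = 0.991), DUSP10 (-0.49, FDR = 0.684), DUSP16 (-0.55, FDR = 0.629) or DUSP22 (-0.10, FDR = 0.670).

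Upon RSL3 treatment, DUSP1, DUSP5 and DUSP10 rose when both lines were averaged. The estimates were 5.43-fold for DUSP1, 2.98-fold for DUSP5 and 3.34-fold for DUSP10. DUSP6 and DUSP7, the ERK-directed members of the cytoplasm, fell to 0.620 and 0.600 of the untreated level with an FDR under 0.05, short of the fold threshold. DUSP2, DUSP4, DUSP16 and DUSP22 did not pass the test. The plot of levels by library shows each passage with its 3 treatments.

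**Figure D1:**
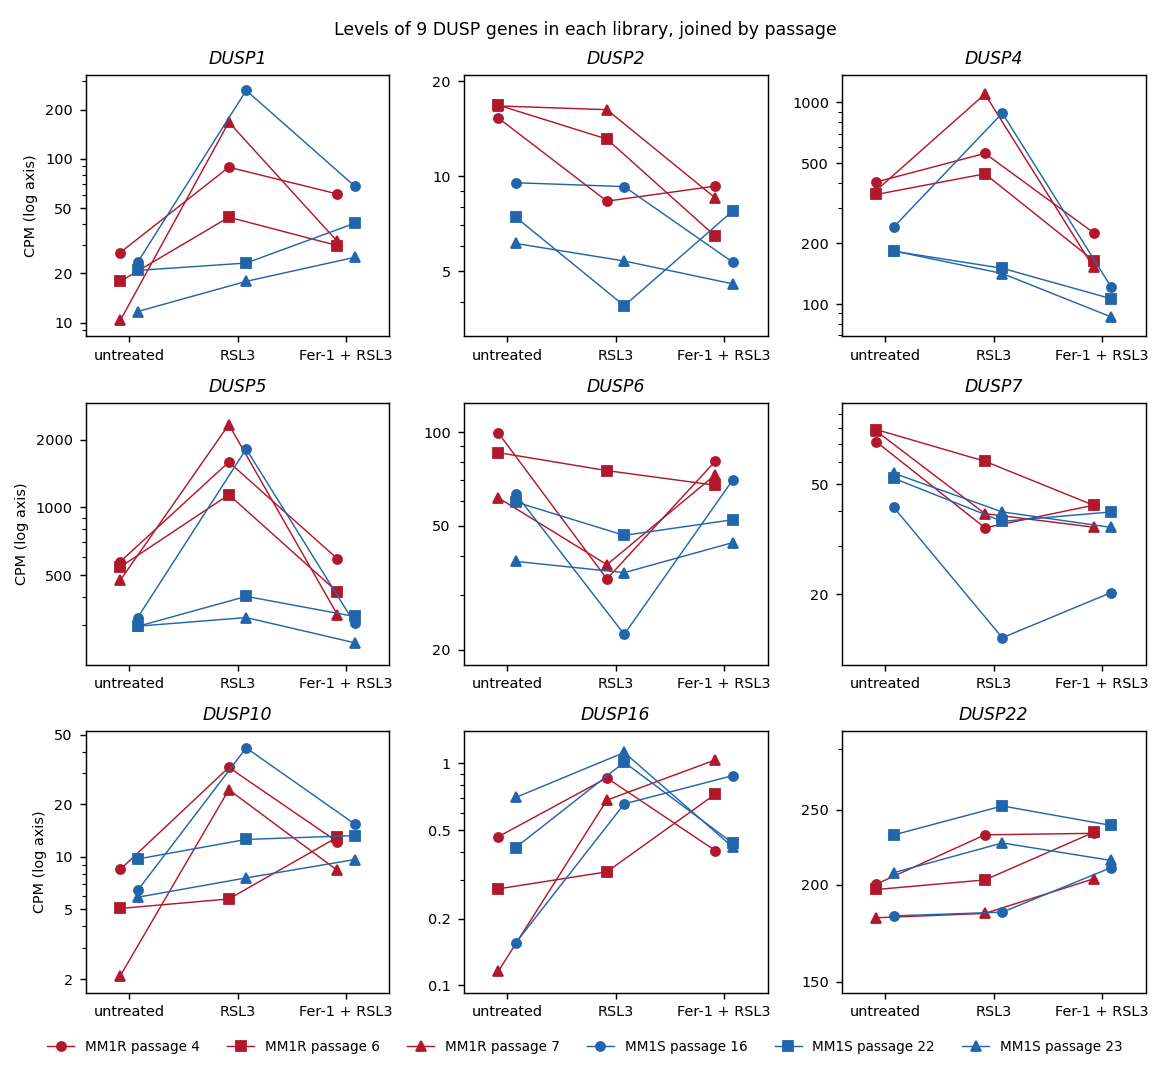
Levels of the 9 tested DUSP genes (CPM on a log axis, each panel with its own range) in untreated, RSL3-treated and Fer-1 + RSL3-treated cells. Each point is a library and each line joins the libraries of a passage (red, MM1R; blue, MM1S). DUSP1, DUSP5 and DUSP10 each peak with RSL3 in MM1R passages 4 and 7 and MM1S passage 16. DUSP1 also does so in MM1R passage 6, and DUSP5 in every passage. DUSP4 and DUSP5 are lower with Fer-1 + RSL3 than with RSL3 in every passage.

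DUSP1 (chr5:172195099-172198198, minus strand) encodes a nuclear phosphatase that acts on p38, JNK and ERK and is a classical stress-induced early gene. Untreated MM1R cells had 26.8, 17.9 and 10.3 CPM at passages 4, 6 and 7, and RSL3-treated cells 88.9, 44.0 and 167.5 CPM. In MM1S cells, the level went from 23.4 to 261.7 CPM at passage 16, from 20.8 to 23.1 CPM at passage 22 and from 11.7 to 17.9 CPM at passage 23. The groups did not overlap in MM1R and overlapped in MM1S, and the RSL3 library was the higher of its pair in all 6 passages. The log2 fold change averaged over both lines was 2.44 (SE 0.569, 95% interval 1.24 to 3.64, FDR = 0.00898). Within the lines it was 2.45 in MM1R (FDR = 0.107) and 2.43 in MM1S (FDR = 0.102). Without MM1S RSL3 replicate 1, from passage 16, the averaged log2 fold change of DUSP1 was 1.30 (FDR = 0.0223) and that in MM1S 0.14 (FDR = 0.957).

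DUSP5 (chr10:112257665-112271291, plus strand) encodes a nuclear phosphatase selective for ERK, and its gene is a target of ERK signaling itself. In MM1R cells, DUSP5 went from 574.0, 543.6 and 474.4 CPM without treatment to 1593, 1139.7 and 2339 CPM with RSL3 at passages 4, 6 and 7. In MM1S cells, it went from 323.4 to 1821 CPM at passage 16, from 295.9 to 402.3 CPM at passage 22 and from 296.5 to 323.9 CPM at passage 23. RSL3 libraries were above untreated libraries without overlap in both lines, which held for 1 member and 6.13% of all tested genes. In MM1S this was nearly a tie, with 323.9 CPM in RSL3 replicate 3 against 323.4 CPM in untreated replicate 1. The raw counts of these libraries, 6071 and 6243, were in the other order. Averaged over the lines, the log2 fold change was 1.57 (SE 0.327, 95% interval 0.88 to 2.26, FDR = 0.00426), with 1.67 in MM1R (FDR = 0.0580) and 1.48 in MM1S (FDR = 0.0830). Without MM1S RSL3 replicate 1 it was 0.97 (FDR = 0.00112), which is under the fold threshold, and 0.26 in MM1S (FDR = 0.761).

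DUSP10 (chr1:221874766-221915431, minus strand) encodes a phosphatase selective for JNK and p38. Its levels in MM1R passages 4, 6 and 7 were 8.47, 5.07 and 2.09 CPM without treatment and 32.5, 5.74 and 24.2 CPM with RSL3. In MM1S passages 16, 22 and 23 they were 6.42, 9.72 and 5.87 CPM without treatment and 42.0, 12.6 and 7.58 CPM with RSL3. The groups overlapped in both lines, although RSL3 was the higher of the pair in all 6 passages. For both lines together, the log2 fold change was 1.74 (SE 0.436, 95% interval 0.82 to 2.66, FDR = 0.0135), with 1.99 in MM1R (FDR = 0.0900) and 1.49 in MM1S (FDR = 0.187). Without MM1S RSL3 replicate 1, DUSP10 had an averaged log2 fold change of 1.23 (FDR = 0.0381) and 0.46 in MM1S (FDR = 0.822).

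The bases just before the annotated gene starts are shown for DUSP1 and DUSP10, which rose with RSL3, and for DUSP7, which fell. They are the 250 bases upstream of the start in RefSeq (GRCh38.p14), and each matched hg19 exactly at a single place. The table holds 9 windows for 8 of the 10 members. It has none for DUSP4 or for DUSP5, which also rose. The window of DUSP6, which also fell, is not printed here. DUSP10 has 2 annotated starts, each printed with its own window. Capitals mark matches, on either strand, to the cAMP response element (CRE, TGACGTCA), AP-1 (TGANTCA), the core of the antioxidant response element (ARE, TGACNNNGC), the heat shock element (GAANNTTC), the core of the metal response element (MRE, TGCNCNC) and the CArG box. A CRE contains no AP-1 match, while an ARE core can contain one.
DUSP1, hg19 chr5:172198199-172198448, minus strand: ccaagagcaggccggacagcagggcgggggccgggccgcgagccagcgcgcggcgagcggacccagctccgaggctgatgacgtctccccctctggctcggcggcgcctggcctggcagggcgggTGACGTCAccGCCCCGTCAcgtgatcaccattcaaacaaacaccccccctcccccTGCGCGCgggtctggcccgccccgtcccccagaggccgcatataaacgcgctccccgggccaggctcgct
DUSP10, outer start, hg19 chr1:221915432-221915681, minus strand: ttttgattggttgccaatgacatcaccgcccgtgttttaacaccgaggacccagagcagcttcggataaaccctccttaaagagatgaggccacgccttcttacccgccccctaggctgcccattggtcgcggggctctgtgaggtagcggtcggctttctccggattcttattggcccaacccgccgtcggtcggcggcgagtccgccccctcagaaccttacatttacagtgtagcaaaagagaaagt
DUSP10, inner start, hg19 chr1:221910243-221910492, minus strand: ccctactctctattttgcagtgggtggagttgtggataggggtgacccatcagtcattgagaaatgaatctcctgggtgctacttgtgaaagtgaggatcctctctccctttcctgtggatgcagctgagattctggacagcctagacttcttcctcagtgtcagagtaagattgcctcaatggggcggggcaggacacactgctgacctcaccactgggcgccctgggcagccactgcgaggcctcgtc
DUSP7, hg19 chr3:52090588-52090837, minus strand: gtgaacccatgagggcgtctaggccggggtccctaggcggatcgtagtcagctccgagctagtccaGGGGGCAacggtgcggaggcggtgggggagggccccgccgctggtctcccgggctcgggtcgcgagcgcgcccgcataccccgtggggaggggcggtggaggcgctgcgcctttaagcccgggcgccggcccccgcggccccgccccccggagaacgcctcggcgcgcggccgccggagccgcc

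The DUSP1 window holds a CRE 125 to 118 bases before the start, an ARE core on the other strand 115 to 107 bases before it and an MRE core 70 to 64 bases before it. The DUSP7 window holds an MRE core 184 to 178 bases before the start, and neither DUSP10 window holds any of these letters. The DUSP6 window holds none of them. Over all 35116 windows in the table, a CRE was found in 1.65%, an AP-1 match in 6.57%, an ARE core in 10.9%, a heat shock element in 5.78%, an MRE core in 49.1% and a CArG box in 1.16%. DUSP8, the member without a detectable level, has 2 CRE matches. The windows of DUSP1 and DUSP7 are rich in G and C (74.4% and 78.4% of bases), and those of DUSP10 less so (56.4% and 55.2%).

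DUSP7 (chr3:52082935-52090587, minus strand) and DUSP6 (chr12:89741012-89746278, minus strand) encode phosphatases selective for ERK. DUSP7 went from 71.1, 78.8 and 77.7 CPM to 34.8, 60.5 and 39.1 CPM in MM1R passages 4, 6 and 7. In MM1S passages 16, 22 and 23 it went from 41.2, 52.5 and 54.8 CPM to 13.9, 36.7 and 39.7 CPM. All RSL3 libraries were below all untreated libraries in both lines, which held for 1 member and 5.52% of all tested genes. The averaged log2 fold change of DUSP7 was -0.74 (SE 0.216, FDR = 0.0298), and -0.56 (FDR = 0.0334) without MM1S RSL3 replicate 1. DUSP6, a marker of ERK output in many cells, went from 99.4, 86.0 and 61.5 CPM to 33.8, 75.2 and 37.5 CPM in MM1R and from 63.3, 59.7 and 38.4 CPM to 22.4, 46.6 and 35.4 CPM in MM1S. The groups overlapped in both lines, and RSL3 was the lower of the pair in all 6 passages. For DUSP6, the averaged log2 fold change was -0.69 (SE 0.215, FDR = 0.0398), and -0.57 (FDR = 0.0842) without MM1S RSL3 replicate 1.

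DUSP4 (chr8:29190581-29208201, minus strand) encodes a nuclear phosphatase for ERK and JNK. Its untreated levels of 403.6, 350.0 and 366.8 CPM in MM1R stood against 559.3, 442.9 and 1101 CPM with RSL3. In MM1S it had 241.4, 183.1 and 183.7 CPM without treatment and 885.5, 150.7 and 141.9 CPM with RSL3, so that it was higher at passage 16 and lower at the other two. The averaged log2 fold change of DUSP4 was 0.93 (SE 0.360, FDR = 0.0898), and 0.22 (FDR = 0.506) without MM1S RSL3 replicate 1. In MM1S, the estimate for DUSP4 went from 0.95 to -0.47 without that library, neither past the test.

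DUSP16 (chr12:12626216-12715797, minus strand), which acts on JNK, had 0.116 to 0.468 CPM in untreated and 0.325 to 0.860 CPM in RSL3-treated MM1R cells, and 0.155 to 0.703 and 0.657 to 1.12 CPM in MM1S cells. RSL3 was the higher of the pair in all 6 passages, with an averaged log2 fold change of 1.11 (SE 0.401, FDR = 0.0717) that rests on few counts. Only 1 of its 6 untreated libraries, against 5 with RSL3 and 3 with Fer-1 + RSL3, reached the minimum count of the filter, so DUSP16 was tested because of its treated libraries. DUSP2 had 8.33, 13.1 and 16.2 CPM with RSL3 in MM1R and 9.27, 3.89 and 5.39 CPM in MM1S, and was the lower of its pair in all 6 passages (log2 fold change -0.35, SE 0.209, FDR = 0.288). DUSP22 (chr6:291630-351355, plus strand) moved by 0.02 to 0.21 on the log2 scale within passages, with 181.4 to 232.1 CPM in untreated or RSL3-treated MM1R cells and 182.4 to 252.9 CPM in the same MM1S groups (log2 fold change 0.10, 95% interval -0.09 to 0.28, FDR = 0.527).

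By the DEG rule, 3 of 9 tested members were higher in the averaged comparison, against 2.79% of all tested genes, and 0 were lower, against 0.441%. By FDR alone, 2 members were lower, against 6.81%. Paired by passage, 5 members (DUSP1, DUSP5, DUSP10, DUSP16 and DUSP22) were higher with RSL3 in all 6 passages, as were 13.8% of all genes, and 3 (DUSP2, DUSP6 and DUSP7) were lower in all 6, as were 14.8%. These shares count a change of any size, and DUSP16 passed the filter through treated libraries. In each line by itself, edgeR's quasi-likelihood test called 0 members, against 1.2% of all genes in MM1R and 1.61% in MM1S. With an unadjusted p under 0.05, there were 5 members in MM1R (18.5% of all genes) and 4 in MM1S (19.5%). DESeq2 called DUSP1, DUSP5 and DUSP10 in MM1R, where it called 1.9% of all genes, and DUSP1 in MM1S, where it called 2.32%. With the passage as a block, which pairs the libraries of a passage, the same edgeR test called 3 members in MM1R (DUSP1, FDR = 0.0222; DUSP5, FDR = 0.0203; DUSP10, FDR = 0.0352), 0 in MM1S and 3 for the average. The block raised the share of all genes called as well, to 2.87% in MM1R, 2.71% in MM1S and 3.76% for the average.

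**Figure D2:**
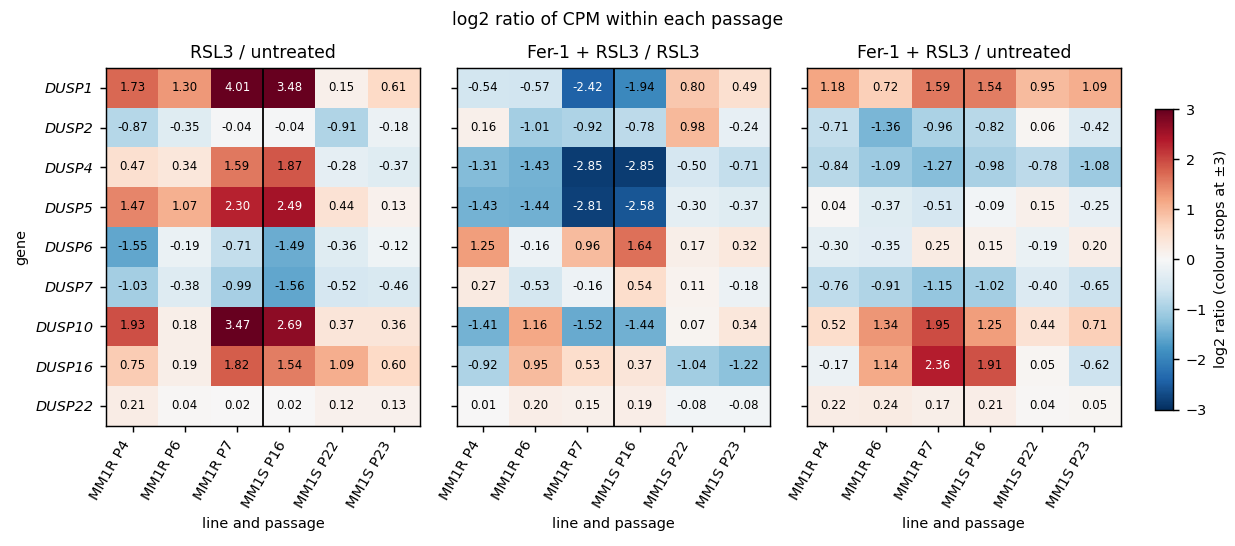
Log2 ratios of CPM between treatments of the same passage, for each of the 6 passages (columns; P, passage) and the 9 tested DUSP genes (rows). Red is higher and blue lower in the first-named treatment. The rise of DUSP1, DUSP5 and DUSP10 with RSL3 ranges from 0.13 to 4.01, and DUSP4 and DUSP5 are blue in all 6 columns of the middle panel.

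The RSL3 change of these members was larger in some passages than in others. DUSP1 had log2 ratios of 4.01 and 3.48 in MM1R passage 7 and MM1S passage 16, of 1.73 and 1.30 in MM1R passages 4 and 6, and of 0.15 and 0.61 in MM1S passages 22 and 23. DUSP5 had 2.30 and 2.49, then 1.47 and 1.07, then 0.44 and 0.13 in the same order, and DUSP10 3.47 and 2.69, then 1.93 and 0.18, then 0.37 and 0.36. MM1S RSL3 replicate 1 also had the highest level of HMOX1, the stress-induced heme oxygenase, with 2298 CPM against 310.2 and 434.5 CPM in the other RSL3-treated MM1S libraries. MM1R passage 7 had 1404 CPM of HMOX1 with RSL3, and MM1R passages 4 and 6 had 236.8 and 243.2 CPM. Without the 3 libraries of MM1S passage 16, the averaged log2 fold change with RSL3 was 1.39 for DUSP1 (FDR = 0.0190), 0.99 for DUSP5 (FDR = 0.00283) and 1.18 for DUSP10 (FDR = 0.0697). The part of the graded response in the results was not tested further.

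The RSL3 responses of the lines were compared with an interaction term, in which line and passage number cannot be told apart either. The difference, MM1S minus MM1R on the log2 scale, was -0.01 for DUSP1 (95% interval -2.31 to 2.29), -0.20 for DUSP5 (-1.55 to 1.15), -0.50 for DUSP10 (-2.31 to 1.31) and 0.05 for DUSP7 (-0.86 to 0.96). For the others it was 0.05 (DUSP2), 0.04 (DUSP4), 0.13 (DUSP6), 0.03 (DUSP16) and -0.001 (DUSP22). edgeR called 0 members and 0% of all genes, with 0 members and 1.55% of genes at an unadjusted p under 0.05, and DESeq2 also called 0. The values near 0 rest on MM1S RSL3 replicate 1. Without this library the difference was -2.31 for DUSP1, -1.42 for DUSP5, -1.53 for DUSP10 and -1.38 for DUSP4, and 0.39 for DUSP7, all with an FDR of 0.998. Then 3 members (DUSP1, DUSP4 and DUSP5) and 3.25% of genes had an unadjusted p under 0.05. The intervals with all libraries are wide, and differences of several fold in DUSP1 or DUSP10 were not detectable with 3 libraries per group.

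When Fer-1 was given before RSL3, DUSP4 and DUSP5 were lower than with RSL3 alone in all 6 passages, while DUSP1, DUSP7 and DUSP10 showed no single direction. DUSP5 levels with Fer-1 + RSL3 were 591.7, 421.2 and 333.6 CPM in MM1R passages 4, 6 and 7 and 304.9, 327.5 and 250.2 CPM in MM1S passages 16, 22 and 23. In MM1R all of them were below the RSL3 libraries, and in MM1S the groups overlapped. DUSP4 levels were 226.2, 164.6 and 152.2 CPM in MM1R and 122.3, 106.5 and 86.6 CPM in MM1S, below every RSL3 library of the same line. Such a lack of overlap in both lines was found for 1 member and 0.917% of all genes. Lower levels in all 6 passages were found for 2 members and 6.56% of all genes.

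Averaged over both lines, the log2 fold change of Fer-1 + RSL3 against RSL3 was -1.93 for DUSP4 (SE 0.370, 95% interval -2.71 to -1.14, FDR = 0.0518) and -1.72 for DUSP5 (SE 0.328, 95% interval -2.41 to -1.03, FDR = 0.0504). Both FDRs lay just above the threshold. edgeR thus called 0 members, against 0.056% of all genes, with 4 members and 12.8% of genes at an unadjusted p under 0.05. DESeq2 called DUSP4 and DUSP5 (FDR = 0.00122 for both) and 0.399% of all genes. So did edgeR with the passage as a block (DUSP4, FDR = 0.0200; DUSP5, FDR = 0.0250), with 0.371% of genes. Without MM1S RSL3 replicate 1, both were also called, with smaller log2 fold changes of -1.22 for DUSP4 and -1.11 for DUSP5 (FDR = 0.0145 for both), with 0.103% of genes called. Without MM1R Fer-1 + RSL3 replicate 2, the FDR was 0.121 for DUSP4 and for DUSP5. Over the 31 fits made, DUSP4 was called in 11 and DUSP5 in 10. Within a line, edgeR called 0 members and 0% of genes in MM1R and in MM1S, with 3 members in each at an unadjusted p under 0.05 (6.17% and 5.75% of genes), and DESeq2 called 0 members in either line.

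The other members had averaged log2 fold changes of -1.24 (DUSP1, FDR = 0.352), -0.79 (DUSP10, FDR = 0.449), 0.63 (DUSP6, FDR = 0.240), -0.35 (DUSP2, FDR = 0.526), -0.24 (DUSP16, FDR = 0.842), 0.06 (DUSP22, FDR = 0.840) and -0.06 (DUSP7, FDR = 0.945) for Fer-1 + RSL3 against RSL3. Without MM1S RSL3 replicate 1, the averaged value was -0.10 for DUSP1 (FDR = 0.949) and -0.29 for DUSP10 (FDR = 0.819), and that of DUSP1 in MM1S went from -1.18 to 1.12 (FDR = 0.998). DUSP1 was lower with Fer-1 in 4 passages and higher in MM1S passages 22 and 23. DUSP6 was higher with Fer-1 in 5 passages, all but MM1R passage 6, whose Fer-1 + RSL3 library is the one that stood apart. These values and those of RSL3 against untreated cells share the RSL3 libraries and are not independent of each other.

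**Figure D3:**
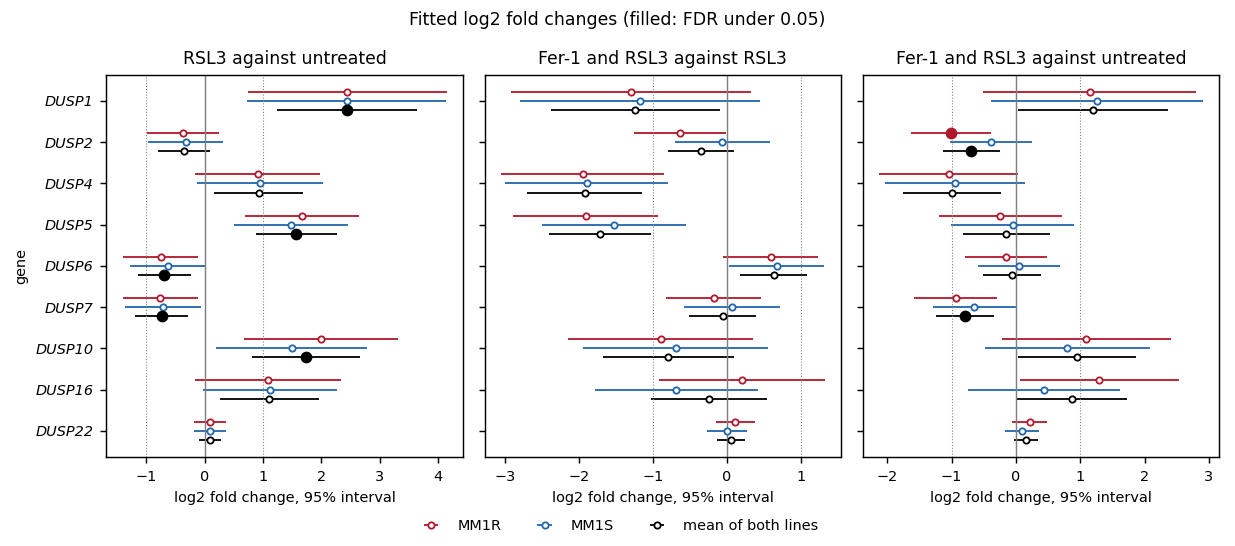
Fitted log2 fold changes of the 9 tested DUSP genes with 95% intervals, for MM1R (red), MM1S (blue) and the mean of both lines (black) in 3 comparisons. Filled points have an FDR under 0.05 and dotted lines mark log2 fold changes of -1 and 1. With RSL3, the averaged estimates of DUSP1, DUSP5, DUSP6, DUSP7 and DUSP10 are filled, and with Fer-1 + RSL3 against RSL3 none is, with DUSP4 and DUSP5 farthest from 0.

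Against untreated cells, the members with Fer-1 + RSL3 did not all lie at the untreated level. DUSP4 was below untreated cells in all 6 passages and in both lines without overlap, as was DUSP7, which held for 2 members and 6.17% of all genes. Lower levels in all 6 passages alone were found for the same 2 members and 16% of genes. The averaged log2 fold change, a comparison added after the values had been seen, was -0.996 for DUSP4 (SE 0.362, FDR = 0.0638), -0.79 for DUSP7 (SE 0.216, FDR = 0.0167) and -0.70 for DUSP2 (SE 0.211, FDR = 0.0285). DUSP7 levels were 42.0, 42.0 and 35.0 CPM in MM1R and 20.3, 39.7 and 34.9 CPM in MM1S. By FDR alone, 2 members were lower, against 8.47% of all genes.

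DUSP1 was above untreated cells in both lines without overlap, with 61.0, 29.5 and 31.3 CPM in MM1R and 68.1, 40.5 and 25.1 CPM in MM1S. This held for 1 member and 8.36% of all genes. DUSP1, DUSP10 and DUSP22 were higher in all 6 passages, as were 17.1% of genes. The averaged log2 fold changes were 1.20 for DUSP1 (SE 0.553, FDR = 0.143) and 0.95 for DUSP10 (SE 0.433, FDR = 0.141), which do not pass the test. DUSP5 (-0.15, 95% interval -0.82 to 0.53, FDR = 0.788) and DUSP6 (-0.06, 95% interval -0.51 to 0.40, FDR = 0.885) had estimates near 0, and DUSP16 (0.87, FDR = 0.148) and DUSP22 (0.15, FDR = 0.254) did not pass the test. edgeR called 0 members for this average, against 2.96% of genes, with 6 members and 32.4% of genes at an unadjusted p under 0.05, and DESeq2 called 0. These 6 members include DUSP16, which passed the filter through treated libraries. DUSP1 was called with the passage as a block (log2 fold change 1.13, FDR = 0.0499), as were 3.75% of all genes.

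Within MM1R, DUSP2 was the sole member called with Fer-1 + RSL3 against untreated cells, where 0.413% of all genes were DEGs that fell. Its levels of 9.30, 6.45 and 8.52 CPM were below the 15.3 to 16.8 CPM of untreated cells without overlap (log2 fold change -1.005, SE 0.295, FDR = 0.0423). The lowest of these values is from the library that stood apart, and without it DUSP2 was not called. In MM1S, DUSP2 had 5.34, 7.76 and 4.56 CPM, which overlapped the untreated libraries, and edgeR called 0 members against 1.37% of genes, with 1 member and 18.8% of genes at an unadjusted p under 0.05. DESeq2 called 0 members in MM1S.

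The pathway around the members was described with 5 lists of genes, for RSL3 against untreated cells averaged over both lines. The median log2 fold change of all tested genes was -0.00013. Of these 14281 genes, 2.79% were higher and 0.441% lower by the DEG rule, and 2215 passed the FDR alone. The 9 tested members had a median of 0.93, and of 0.51 without DUSP16, which passed the filter through treated libraries. Among 16 other DUSP genes, 9 were tested, 1 was a DEG and the median was 0.23. DUSP3, an atypical phosphatase for ERK and JNK, rose 2.05-fold (FDR = 0.0263), while STYX, a catalytically dead relative, fell to 0.712 (FDR = 0.0127), DUSP12 rose 1.28-fold (FDR = 0.00528) and DUSP11, which acts on RNA, rose 1.23-fold (FDR = 0.0135).

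The MAP kinases are the substrates of the DUSPs. Of 14 genes, 11 were tested, with a median of -0.17. By edgeR, 0 were DEGs and 2 passed the FDR alone, as did 2215 of all 14281 genes. MAPK13, a p38 kinase, fell to 0.752 (FDR = 0.0243) and the atypical MAPK6 rose 1.30-fold (FDR = 0.0430). Of 28 kinases upstream of them (MAP2K and MAP3K), 27 were tested, with a median of -0.09. Against 2.79% of all genes, 1 of them was a higher DEG. This gene was MAP3K8, which activates the ERK pathway, with a rise of 4.32-fold (FDR = 0.00332). MAP2K3, a p38 activator, rose 1.43-fold (FDR = 0.00474), and MAP2K6 (0.618, FDR = 0.0209) and TAOK2 (0.655, FDR = 0.00120) fell.

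Immediate early genes, which kinase signaling switches on without new protein synthesis, had the highest median of the lists. Of 25 genes, 23 were tested, 13 were DEGs, all of them higher, and the median was 1.75. Higher DEGs made up 2.79% of all tested genes. Of these 23 genes, 4 (NR4A3, EGR3, FOSL1 and ETV4) reached the minimum count in fewer than 3 untreated libraries and were tested because of treated ones, which favours a difference. FOSL1 and ETV4 are named here after their values were seen. Without them, 11 of 19 were DEGs and the median was 1.75. The nuclear receptor NR4A1 rose from 5.38 ± 2.04 to 579.5 ± 716.8 CPM in MM1R and from 1.84 ± 0.874 to 700.1 ± 1189 CPM in MM1S (FDR = 0.00119). NR4A2 rose from 0.705 ± 0.159 to 45.2 ± 60.3 CPM and from 0.943 ± 0.212 to 131.8 ± 224.6 CPM (FDR = 0.00277). NR4A3 (FDR = 0.00189) and the transcription factor EGR3 (FDR = 0.0147) were at or under 3 counts in 5 and 6 of 6 untreated libraries, so their fitted folds are not given. NR4A3 reached 63.0 ± 82.8 CPM with RSL3 in MM1R and 245.4 ± 422.4 CPM in MM1S, and EGR3 0.362 ± 0.386 and 0.779 ± 0.753 CPM. The SDs of these genes exceed or come close to their means in the RSL3 groups, as for DUSP1 in MM1S (100.9 ± 139.3 CPM).

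Of 20 other feedback inhibitors and phosphatases, 18 were tested, with a median of 0.13. By the DEG rule, 3 were higher and 1 lower, against 2.79% and 0.441% of all genes. SPRY1, a Sprouty inhibitor of ERK signaling, fell to 0.306 (FDR = 0.000824). The pseudokinase TRIB1 rose 2.61-fold (FDR = 0.00308), ERRFI1, an inhibitor of EGF receptors, 2.34-fold (FDR = 0.0191) and the tyrosine phosphatase PTPRR 2.08-fold (FDR = 0.0135). Of the genes named here as inhibitors of ERK or its signaling and with an FDR under 0.05, SPRY1, DUSP6 and DUSP7 fell. DUSP6 and DUSP7 were short of the fold threshold. DUSP1, DUSP3 and DUSP5 rose, so these genes showed no single direction. TRIB1, ERRFI1 and PTPRR, which also rose, are not counted among them.

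**Figure D4:**
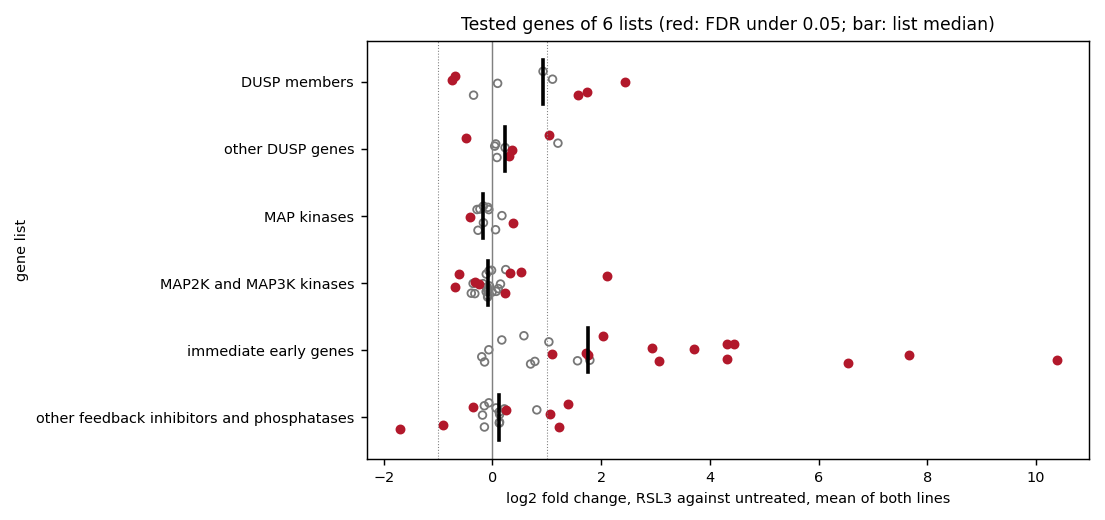
Log2 fold changes of RSL3 against untreated cells, averaged over both lines, for the tested genes of 6 lists. Each point is a gene (red, FDR under 0.05; vertical scatter is for display), black bars are list medians and dotted lines mark -1 and 1. The immediate early genes reach farthest to the right, where the points farthest out come from genes with few untreated counts, and the MAP kinases stay near 0.

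Some members varied together across the 18 libraries. Log2 CPM of DUSP4 and DUSP5 had a Pearson r of 0.919 and a Spearman rho of 0.806, and DUSP1 and DUSP10 an r of 0.866 and a rho of 0.777. DUSP7 and DUSP10 had an r of -0.769 and a rho of -0.754. These values are descriptions over libraries that share lines, treatments and passages. With each group's mean taken away, r was 0.974 for DUSP4 and DUSP5, 0.819 for DUSP1 and DUSP10 and -0.702 for DUSP7 and DUSP10. DUSP1 then had a higher r with DUSP4 (0.940) and with DUSP5 (0.937) than with DUSP10, and -0.841 with DUSP7. DUSP4 and DUSP7 had -0.807.

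For each tested member, the gene with the highest Pearson r over the 18 libraries was named. It was ZFP36L1 for DUSP1 (0.963), MEF2D for DUSP4 (0.965), TENT5C for DUSP5 (0.955), NRROS for DUSP7 (0.955), HMGXB3 for DUSP2 (0.941), IRS2 for DUSP10 (0.937), TK2 for DUSP22 (0.884), TERF2 for DUSP6 (0.874) and ARGFX for DUSP16 (0.802). The low counts of DUSP16 limit its value.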

How the data were processed

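RNA was sequenced in pairs of 50 bp reads. The authors checked the reads with FastQC 0.11.5, aligned them to hg19 with STAR 2.7.3a and deposited raw counts for 43735 genes, used here. The authors also deposited a signal table of 29553 genes, which holds the counts over library size factors of 0.834 to 1.08. The counting tool, the annotation and the use of strand are not given in the sources used here. No column was left unassigned.

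The rule for the members used symbols and no values, but the members and lists were chosen with earlier results of these data known. All groups were fitted in 1 edgeR quasi-likelihood model of 6 group means (R 4.3.3, edgeR 4.0.16) after filterByExpr with a minimum count of 10, which kept 14281 genes (15877 genes had 0 counts in all libraries), and TMM scaling. This left 12 residual degrees of freedom. P-values were adjusted over all tested genes by Benjamini-Hochberg (FDR), and DEGs were genes with an FDR below 0.05 that moved by more than 1 on the log2 scale. Differences within passages used log2 CPM with a prior count of 2. Levels per kb used the union of annotated exons in GENCODE for hg19. Motif matches and positions were computed from RefSeq sequences.

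The text names every tested member in the averaged comparisons, the interaction and the comparison of the untreated lines, up to 4 genes of each other list, those with an FDR under 0.05 and the largest averaged RSL3 change, and for each tested member its most correlated gene. The study gives the replicates as biologically independent. The replicate numbers stand for passages, which pair the libraries within a line by their labels. Deviations from group means had a median correlation within passages of 0.250 in MM1R (0.0338 to 0.516, 9 pairs) and of 0.416 in MM1S (0.216 to 0.681, 9 pairs). The block could not be fitted for the untreated lines, which share no passage. No pair of replicates agreed within sampling noise (chi-square per degree of freedom 7.66 to 158.7, 18 pairs). Alternatives were DESeq2 1.42.0, other scalings, filters and thresholds, limma 3.58.1 on log2 of the authors' normalized values with a pseudocount of 1, and leaving out libraries. Tested on simulated data, in which 200 of 14054 genes changed 4-fold, the steps called 186 of them with 5 false calls in MM1R, 191 with 2 in MM1S and 196 with 3 for the average of RSL3 against untreated. The changed genes were drawn from those above 1 CPM, and every RSL3 library was given the same change. No passage effect was simulated. How many genes are found when the response differs between passages, as it does here, was thus not tested. The value of a marker gene looked at is not reported here.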

Additional observations from a re-analysis of the deposited data

How the results depend on the processing

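The counts of members called changed from or to 0, or by over 1.5 times, as follows, with RSL3 against untreated cells named first. The number of all genes called also changed between settings and is given beside them. For an FDR under 0.5, the share of all genes was not counted. For RSL3 in MM1R (0 called), DESeq2, the fit with no filter on low counts, the passage as a replicate block, the block without MM1R Fer-1 + RSL3 replicate 2, the block without MM1S RSL3 replicate 1 and the fit without the 3 libraries of MM1S passage 16 each called 3, a fit of the compared groups alone called 2, and an FDR under 0.5 called 4. Of all genes, the main fit called 1.2%, DESeq2 1.9% and the block 2.87%. No filter called 381 higher and 50 lower of 27858 genes. The block called 322 and 72 of 14646 without MM1R Fer-1 + RSL3 replicate 2, and 437 and 92 of 14604 without MM1S RSL3 replicate 1. Without MM1S passage 16, 337 and 45 of 14431 were called, and with the compared groups alone 215 and 23 of 13325. For RSL3 in MM1S (0 called), the members called were 1 with DESeq2, 3 with no filter and 4 with an FDR under 0.5. Of all genes, the main fit called 1.61%, DESeq2 2.32%, and no filter 442 higher and 75 lower of 27858. For the average over both lines (3 called), 1 member was called without MM1S passage 16, 4 with an FDR under 0.5 or no filter, and 5 by FDR alone. Of all genes, the main fit called 399 higher and 63 lower of 14281, and 2215 passed the FDR alone. No filter called 570 and 91 of 27858, and 256 and 36 of 14431 were called without MM1S passage 16. For Fer-1 + RSL3 against RSL3, no filter gave 3 in each line and for the average, and an FDR under 0.5 gave 2 in MM1R and 3 for the average. Of 27858 genes, no filter called 43 higher and 91 lower in MM1R, 10 and 141 in MM1S and 32 and 137 for the average. The main fit called 0% of genes in each line and 0.056% for the average. In MM1R, 2 were called without MM1S passage 16 and with the block without MM1S RSL3 replicate 1. Of all genes, these fits called 1 higher and 39 lower of 14431, and 22 and 69 of 14604. For the average, 2 were called with DESeq2, RLE scaling, the block, the block without MM1S RSL3 replicate 1 and without MM1S passage 16, and 1 with the block without MM1R Fer-1 + RSL3 replicate 2. DESeq2 called 0.399% of all genes, the block 0.371%, and RLE scaling 0 higher and 11 lower of 14281. The block called 22 and 25 of 14604 without MM1S RSL3 replicate 1, and 0 and 22 of 14646 without MM1R Fer-1 + RSL3 replicate 2. Without MM1S passage 16, 0 and 9 of 14431 were called. For Fer-1 + RSL3 against untreated MM1R (1 called), 0 were called with upper-quartile scaling, a minimum count of 50, without MM1R passage 6 and with the block without MM1R Fer-1 + RSL3 replicate 2, 2 with the compared groups alone and without MM1S passage 16, 3 with the block without MM1S RSL3 replicate 1, 4 with no filter and 5 with an FDR under 0.5. In MM1S (0 called), 1 was called with no filter, with an FDR under 0.5 and with the block without MM1S RSL3 replicate 1. Of all genes, the main fit called 1.37%, no filter 273 higher and 105 lower of 27858, and that block 346 and 142 of 14604. For the average (0 called), 1 was called with limma on the authors' values, the block, either block with a library left out, the compared groups alone, an FDR under 0.5 and without MM1S passage 16, and 2 with no filter and by FDR alone. For the untreated lines (1 called), 2 were called without MM1S passage 16 and 0 without MM1R passage 6. Of all genes, the main fit called 4.64%. Without MM1S passage 16, 677 higher and 349 lower of 14431 were called, and without MM1R passage 6, 244 and 209 of 14592.

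With each library left out in turn, the counts were 0 to 3 for RSL3 in MM1R, 0 to 2 in MM1S and 2 to 4 for the average, 0 to 2 for Fer-1 + RSL3 against RSL3 in MM1R, 0 in MM1S and 0 to 2 for the average, 0 to 2 for Fer-1 + RSL3 against untreated MM1R cells, 0 in MM1S and 0 to 1 for the average, 0 to 1 for the untreated lines and 0 for the interaction. The cause of these changes was not tested. DUSP1 was called for the average of RSL3 in all 31 fits, DUSP10 in 30 and DUSP5 in 28. Set against the main fit, no fold change of a member called in either fit reversed its sign. Where neither fit called the member, the sign differed in 70 values without a single library and in 46 under other alternatives. DUSP1 for Fer-1 + RSL3 against RSL3 in MM1S was called in 1 of 31 fits, and its estimates ran from -1.67 to 1.12. The passage as a block changed no other call. The fits without MM1S passage 16 or MM1R passage 6 and the blocks with a library left out were chosen after the data had been seen. DUSP8 and DUSP16 are limited by depth, and the responses of single lines by the spread between 3 passages. DUSP16, which passed the filter through treated libraries, is among the members counted at an FDR under 0.5 in some comparisons. These are RSL3 in each line and for the average, and Fer-1 + RSL3 against untreated MM1R cells.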
